A study of Arabidopsis thaliana with 6 samples.

Results

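The AT2TE19610 locus is a transposable element (TE) locus on chromosome 2 of Arabidopsis thaliana that gave spliced, polyadenylated transcripts in every mutant library of the series. Its transcript models were taken as those that the authors' lists pair with the TE identifiers AT2TE19610, AT2TE19615 or AT2TE19625. There were 12 such models of 829 in all, and 1 of 344 loci. The locus was chosen by its cluster reads, which were higher in ddm1 pol V and the triple mutant than in ddm1, so the read values below are a description and carry no test. The models spanned chr2:4727560-4731777 on the plus strand (TAIR10), 4218 nt in all. A working name for the locus calls it CACTA-like, which the data bore out only in part, as described with the protein matches.

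The 6 libraries were long-read PCR-cDNA of poly(A) RNA from immature flower buds of plants of ecotype Columbia. The genotypes were wt, ddm1, ddm1 rdr6, ddm1 pol V and the triple mutant ddm1 rdr6 pol V, the last as Rep A and Rep B, so all mutants shared the ddm1 mutation and no library carried rdr6 or pol V alone. Plants were kept at 22 °C in a day of 16 h light, and the labels name no allele. Every genotype other than the triple mutant had 1 library, and whether Rep A and Rep B came from separate plants was not stated.

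CACTA elements, called En/Spm elements after their founding members in maize, are DNA transposons that move by a cut-and-paste mechanism through an element-encoded transposase. Their ends carry short inverted repeats that begin with the letters CACTA. In Arabidopsis they are kept silent by DNA methylation. DDM1 is a chromatin remodeler needed for that methylation, RDR6 makes double-stranded RNA that is cut into small interfering RNAs, and Pol V makes the scaffold RNA of RNA-directed DNA methylation.

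The locus gave short and long spliced forms, and the exon junctions below tell the forms apart. Each line holds the last 12 bases of the upstream exon in capitals and the first 12 of the downstream exon in lower case, read from the plus strand of the TAIR10.1 reference.
exon 1 to exon 2: GTCGGGTAATAGatccatcgttag
exon 1 to exon 3, exon 2 skipped: GTCGGGTAATAGgtagccatagtg
exon 2 to exon 3: ATCCAGGCCAAGgtagccatagtg
exon 2 to exon 4, exon 3 skipped: ATCCAGGCCAAGgagatcgacgag
exon 3 to exon 4: ATGTATTTTGAGgagatcgacgag

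Exon 3 was where the short forms and the seven-exon long form parted. In the short forms it ran on past a splice donor, to a 3′ end 36 nt downstream in 8 of the 9 short models. In the seven-exon form it was spliced at that donor. The sequences below show the donor, with the first 2 bases of the intron in capitals. They also show the last 30 bases of short forms with that 3′ end, with the hexamer AATAAA in capitals. AATAAA is the best known signal for cleavage and polyadenylation. The chromosome 3 lines belong to a related locus, AT3TE60425, described further on.
chromosome 2 donor, chr2:4729085-4729108, plus strand: atgtattttgagGTattttaagat
chromosome 3 donor, chr3:14789759-14789782, minus strand: atgtattttgagGTattttaagat
chromosome 2 short 3′ end, chr2:4729103-4729132, plus strand: taagattAATAAAatgagttttcttaaaaa
chromosome 3 short 3′ end, chr3:14789735-14789764, minus strand: taagattAATAAAatgagttttgttaaaaa

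The start of the transcripts is shown next, from 250 bases before to 50 bases after, counted from the first transcribed base and including it. The capitals mark TATAAATA, a TATA-box type motif, and the first transcribed base.
chromosome 2 start, chr2:4727310-4727609, plus strand: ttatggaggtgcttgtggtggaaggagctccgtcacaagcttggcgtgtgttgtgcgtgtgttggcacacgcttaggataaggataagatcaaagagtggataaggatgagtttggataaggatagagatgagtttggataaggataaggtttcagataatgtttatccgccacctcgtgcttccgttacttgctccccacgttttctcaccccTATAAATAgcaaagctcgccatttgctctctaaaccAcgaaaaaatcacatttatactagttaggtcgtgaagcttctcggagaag
chromosome 3 start, chr3:14791364-14791663, minus strand: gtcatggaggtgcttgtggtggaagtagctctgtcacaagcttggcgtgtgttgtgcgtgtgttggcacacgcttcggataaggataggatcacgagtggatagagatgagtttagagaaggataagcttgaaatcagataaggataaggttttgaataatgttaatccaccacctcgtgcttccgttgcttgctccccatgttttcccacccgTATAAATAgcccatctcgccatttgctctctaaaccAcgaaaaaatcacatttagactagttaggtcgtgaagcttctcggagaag

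TATAAATA was searched on the transcript strand and occurred 1 time in each window. Its first base lay 36 nt before the first transcribed base at both loci, taken as the farthest upstream start of a model. On chromosome 2, models with that start held 553 reads, and models starting 4 nt downstream held 761. Of 27443 windows of the same length around the starts of protein-coding genes, 2098 (7.64%) held TATAAATA on the transcript strand. A match of letters shows no bound factor.

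All 12 models used canonical introns and fell into 5 isoforms, told apart by their introns. Each of the 9 distinct introns had GT at its start and AG at its end, read on the plus strand. The three-exon short form joined exon 1 (4727560 to 4727666, 107 nt), exon 2 (4727742 to 4727830, 89 nt) and exon 3 (4728955 to 4729132, 178 nt). It was 365 to 374 nt long after splicing. The second short form skipped exon 2 and was 281 or 285 nt long. The short forms held 9 of the 12 models and 1290 of the 1326 reads.

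The 3 long forms had 1 model each, all in Rep B. The seven-exon form (2145 nt) held exons 1 and 2, exon 3 cut back to 142 nt, and exons 4 (4729678 to 4730363, 686 nt), 5 (4730465 to 4730615, 151 nt), 6 (4730713 to 4731108, 396 nt) and 7, which began at 4731198. A six-exon form (2009 nt) lacked exon 3 and spliced exon 2 directly to exon 4 over an intron of 1847 nt. A four-exon form (1408 nt) began inside exon 4 at 4730019 and used a donor in exon 5 that left 90 nt of it. The seven-exon form was paired with all 3 TE identifiers, the six-exon and four-exon forms with AT2TE19615 and AT2TE19625 only, and every short form with AT2TE19610 only. In Rep B the short and the long models stood under separate gene identifiers in the deposited file.

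**Figure D1:**
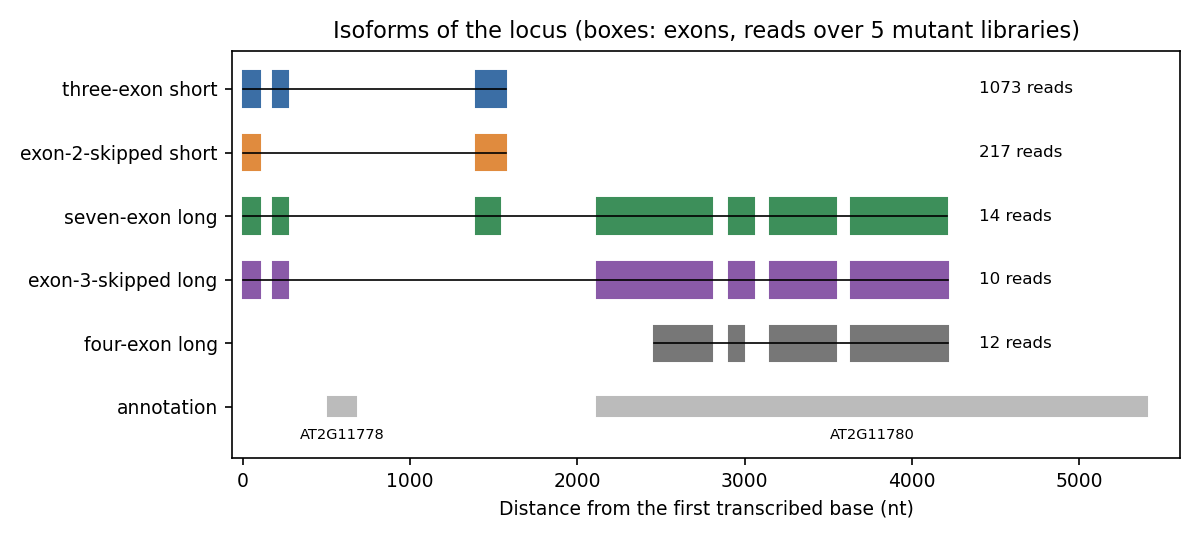
Exons (boxes) and introns (lines) of the 5 isoforms, with distance from the first transcribed base in nt on the x axis and cluster reads summed over the 5 mutant libraries at the right. The annotated genes AT2G11778 and AT2G11780 are in grey. The short forms, with 1073 and 217 reads, stopped before the start of AT2G11780, and the 3 long forms, with 10 to 14 reads, overlapped it, the four-exon form lying wholly inside it.

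The transcript ends were nearly the same in the 5 mutant libraries. Of the 12 models, 7 began at 4727560 (553 reads) and 4 at 4727564 (761 reads), 4 nt apart, and the other was the four-exon form. Of the 9 short models, 8 ended at 4729132 (1255 reads), and the three-exon model of ddm1 rdr6 ended at 4729123 (35 reads). AATAAA began 22 nt before 4729132, the last base of those 8 short models. Of all 829 models, those of the locus included, 106 (12.8%) held that hexamer in their last 30 nt. The short 3′ end lay on a run of 5 A bases in the genome, and 3 of the next 20 genomic bases were A. Whether oligo(dT) priming within the RNA set that end was not tested. The long forms ended at 4731771, 4731774 and 4731777.

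The reference annotation covered only part of these transcripts. AT2G11780, annotated as a pseudogene (chr2:4729678-4732966, plus strand, a single exon of 3289 nt), began at the first base of exon 4. The long forms were spliced within it and ended at least 1189 nt before its annotated end. Exons 1 to 3 overlapped no annotated gene on their strand. AT2G11778, annotated as protein-coding (chr2:4728072-4728239, plus strand, 168 nt), lay within the intron between exons 2 and 3 and was in no model.

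The 5 intron chains of the locus were the highest number in the series, and 4 of 344 loci, this one included, reached it. In Rep B alone the locus had 5 as well, against a median of 1 over 334 loci, and 2 loci, this one included, had 5. No model under 10 reads is listed, so a locus with few reads can show few chains, and this locus was chosen by its reads. The chains of the 3 long forms had 10 to 14 reads each, in Rep B only. With models of at least 20 reads, 2 chains remained. Every model of the locus had at least 2 exons, so the share of reads in multi-exon models was 100% in each of the 5 mutant libraries. That share was not set beside those of other loci.

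The locus had no model in wt and was highest in the libraries with a pol V mutation. The number that ends each model name was read as the reads in the model's cluster, and no deposited number was under 10. The ddm1 library held 26 reads of the locus (exact Poisson 95% interval 17.0 to 38.1), ddm1 rdr6 held 49 (36.3 to 64.8), ddm1 pol V 272 (241 to 306), Rep A 137 (115 to 162) and Rep B 842 (786 to 901). No model in wt means that no cluster there reached the smallest number listed, not that no transcript was present. The Poisson intervals of neighbours in the order ddm1 and ddm1 rdr6 overlapped, and those of the other libraries did not. They cover counting error only, since PCR reads without molecular identifiers are not independent molecules.

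Relative to ddm1, reads were 1.88 times as many in ddm1 rdr6 (exact conditional binomial 95% interval 1.15 to 3.16) and 10.5 times as many in ddm1 pol V (6.99 to 16.3). They were 5.27 times as many in Rep A (3.45 to 8.35) and 32.4 times as many in Rep B (21.9 to 49.9). The triple mutant thus had a mean log2 ratio over ddm1 of 3.71 ± 1.85 (SD, n = 2). The replicates differed by a ratio of 6.15 (5.13 to 7.42), and all TE reads of these libraries differed by 7.38. Rep B was sequenced alone in round 2 after 13 PCR cycles, and the 5 other libraries together in round 1 after 14 cycles. The part of depth, round or cycles in the read differences was not tested, and library totals were unknown.

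These ratios can be set beside those of all loci with a model in both libraries, the rule of choice having used this contrast. In ddm1 rdr6 the locus was 19th of 42 loci, with a median of 1.61, and 5 of 42 loci (11.9%) had at least 4 times the ddm1 reads. In ddm1 pol V it was highest of 40 loci, with a median of 2.20 and a next value of 7.18, and 15.0% of the loci passed the 4-fold mark. In Rep A it was 2nd of 32 loci, with a median of 1.27 and 6.25% past the mark. In Rep B it was 2nd of 42 loci, with a median of 3.86 and 50.0% past the mark. The 4 ratios share the ddm1 library.

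**Figure D2:**
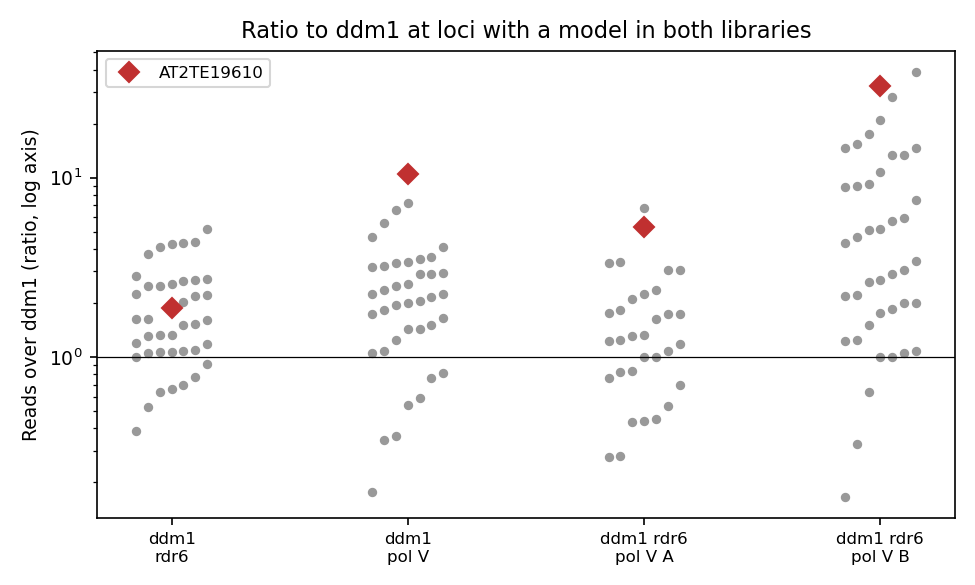
Reads over ddm1 (ratio, log axis) in 4 mutant libraries, for each locus with a model in both libraries (grey points) and for AT2TE19610 (red diamonds). AT2TE19610 lay near the middle of the loci in ddm1 rdr6 (1.88) and was highest or second highest in ddm1 pol V (10.5), Rep A (5.27) and Rep B (32.4).

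Set against all TE reads of each library, the libraries fell into separate ranges. The locus took 21.5 of every 1000 TE cluster reads in ddm1 and 15.7 in ddm1 rdr6. It took 63.2 in ddm1 pol V, 59.1 in Rep A and 49.2 in Rep B. All 3 libraries with a pol V mutation thus lay above both libraries without one, and on this scale ddm1 rdr6 was below ddm1. The locus was chosen for its rise from ddm1 to these 3 libraries, so their place above ddm1 is no separate support. Models under 10 reads enter neither count, and how this bears on libraries with unlike totals was not tested. These scaled values carry no interval, and those of ddm1 and ddm1 rdr6 rest on 26 and 49 locus reads, so their order is not resolved. The ratio of ddm1 pol V to ddm1 rdr6, libraries of the same round, was 5.55 (4.08 to 7.69) for the locus and 1.38 for all TE reads. The ratio of Rep A to ddm1 rdr6, also of the same round, was 2.80 (2.00 to 3.96) for the locus and 0.741 for all TE reads. Rep A held 0.504 times the reads of ddm1 pol V (0.407 to 0.621), and all its TE reads were 0.538 times as many.

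**Figure D3:**
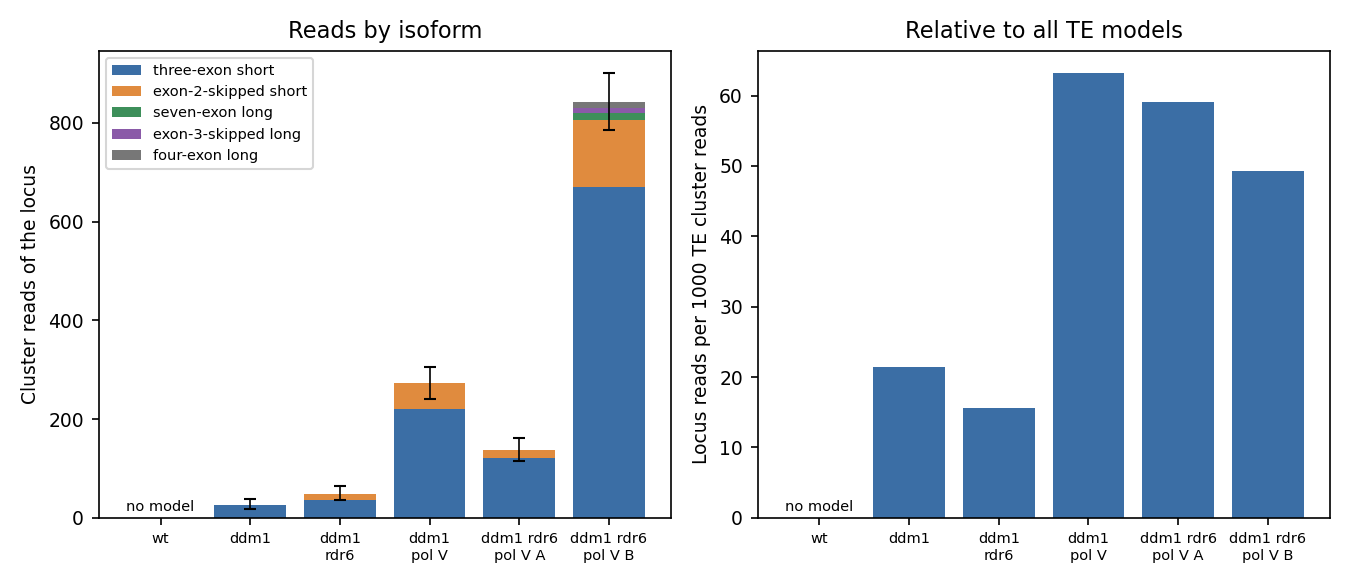
Left, cluster reads of the locus by library, stacked by isoform, with exact Poisson 95% intervals of the sum. Right, the same sum per 1000 cluster reads of all TE models. The 3 libraries with a pol V mutation lay between 49.2 and 63.2 per 1000 and ddm1 and ddm1 rdr6 at 21.5 and 15.7, while wt had no model.

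The three-exon short form was the most abundant isoform in every mutant library. All 26 reads of ddm1 were of this form, as were 35 of the 49 in ddm1 rdr6, 221 of 272 in ddm1 pol V, 121 of 137 in Rep A and 670 of 842 in Rep B. The form without exon 2 had 14 reads in ddm1 rdr6, 51 in ddm1 pol V, 16 in Rep A and 136 in Rep B, and no model in ddm1. Its share of the short-form reads was 28.6% in ddm1 rdr6 (exact Clopper-Pearson 95% interval 16.6 to 43.3), 18.8% in ddm1 pol V (14.3 to 23.9), 11.7% in Rep A (6.82 to 18.3) and 16.9% in Rep B (14.4 to 19.6). The intervals of all 4 libraries overlapped one another in part. At the share of Rep B, ddm1 would have held 4.39 reads without exon 2, under the smallest number listed.

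The long forms together had 36 of the 842 reads of Rep B, a share of 4.28% (3.01 to 5.87), from 14, 10 and 12 reads. At that share, 1.11 long-form reads would be found in ddm1, 2.10 in ddm1 rdr6, 5.86 in Rep A and 11.6 in ddm1 pol V. Spread over 3 models these fall under the smallest number listed, so the long forms could not be compared between genotypes at this depth. The 2 short forms had models in at least 4 of the 5 mutant libraries.

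The short forms held almost no open reading frame, while the long forms did. The longest frame from ATG to stop in all 9 short models was 21 nt, or 6 codons and a stop. Over all 829 models the median was 222 nt, and 57 (6.88%) had no frame longer than 21 nt. Among the 102 models of 250 to 400 nt the median was 72 nt, and 15 (14.7%) had none longer than 21 nt. The 57 and the 15 both include the 9 short models of the locus itself and the 383-nt model of AT3TE60425. Most of the 15 were thus models of the locus, and that share is no separate background. The ATG at 4729085, the first base of the donor sequence shown above, opened 6 codons in the short form, which ran past the donor into a stop at 4729105. In the seven-exon form, where the donor was spliced, the same ATG opened 212 codons (639 nt with the stop) that ended in exon 4. The longest frame was 195 codons in the six-exon form and 154 codons in the four-exon form. No protein was measured.

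Matches to annotated proteins were found only in the long forms, and these matches were to proteins named after En/Spm elements. In a translated search against all reference proteins, neither short form had a match at an e-value of 1e-05. The seven-exon and six-exon forms matched AT2G06420, named an En/Spm-like transposon with a domain of unknown function (DUF1985), at 76.6% identity over 244 amino acids in exons 4 and 5, with 4 stop codons inside the match. The four-exon form matched the same protein at 71.5% over 151 amino acids. Exon 6 of the seven-exon and six-exon forms matched AT5G24275, also named En/Spm-like, at 34.5% over 87 amino acids.

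No isoform matched a protein named as a transposase, and 27 of the 29 other loci with a match to a CACTA or En/Spm protein did. Those 29 loci had 10 to 257 reads in Rep B, with a median of 17. AT2TE19610 had 842, but 806 of these were of the short forms, which matched no protein. Its matching long forms had 14, 10 and 12 reads and no model outside Rep B. None of the 29 loci had a model in ddm1, and 11 had one in ddm1 pol V. The CACTA terminal sequence was searched as CACTACAA on both strands, from 10000 nt before to 10000 nt after the models. It had 1 match, 9449 nt beyond the nearer end of the models, and 60.0% of 4917 genome windows of that size held at least 1. The name CACTA-like therefore rests on the protein names of the long-form matches, and the locus is called here by its TE identifier.

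A related locus on chromosome 3 shared the exons of the short forms but made mostly a longer transcript. AT3TE60425 (chr3:14789042-14791413, minus strand) had no model in wt, ddm1 and Rep A, and 12 reads in ddm1 rdr6, 95 in ddm1 pol V and 94 in Rep B. Its 300 bases around the start were 89.4% identical to those of AT2TE19610, with 28 mismatches and 4 gap bases. Exon 1 was 96.3% identical, exon 2 89.9% and exon 3 of the short form 87.2%. From the donor to the short 3′ end, 35 of 36 bases were identical, and AATAAA, the run of 5 A and its place were the same. How the aligner placed reads between the loci was not tested.

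The share of reads that stopped at the short 3′ end differed between these loci in Rep B. At AT2TE19610, 806 of 830 reads that began in exon 1 were of a short form (97.1%, 95.7 to 98.1). The rest were 14 reads of the seven-exon form, spliced at the exon 3 donor, and 10 of the six-exon form, which lacked exon 3. At AT3TE60425, 10 of 94 reads were of a short form (10.6%, 5.22 to 18.7), in a 383-nt model that ended at the equivalent base. The others were spliced at the donor to a last exon, 26 reads in an 896-nt model without exon 2 and 58 in a 979-nt model with it. The intron after the donor was 581 nt on chromosome 2 and 91 nt on chromosome 3, and the short 3′ end lay 545 nt and 55 nt before the next exon. The forms compared also differed in length. At AT2TE19610 in Rep B the short forms were 285 and 370 nt and the long forms from exon 1 were 2009 and 2145 nt. The shares come from 1 library, and the part of these distances and of transcript length was not tested.

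Exon 2 was skipped at both loci. At AT3TE60425 the reads without it were 12 of 12 in ddm1 rdr6 (73.5 to 100%), 42.1% in ddm1 pol V (32.0 to 52.7) and 27.7% in Rep B (18.9 to 37.8). In ddm1 rdr6 and ddm1 pol V these intervals lay above those of AT2TE19610 given earlier, and in Rep B they overlapped. A form with under 10 reads is not listed, which could raise the share of a library with few reads. The longest open reading frame of AT3TE60425 was 129 nt in its long forms and 21 nt in its short form, and no model there matched a protein.

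**Figure D4:**
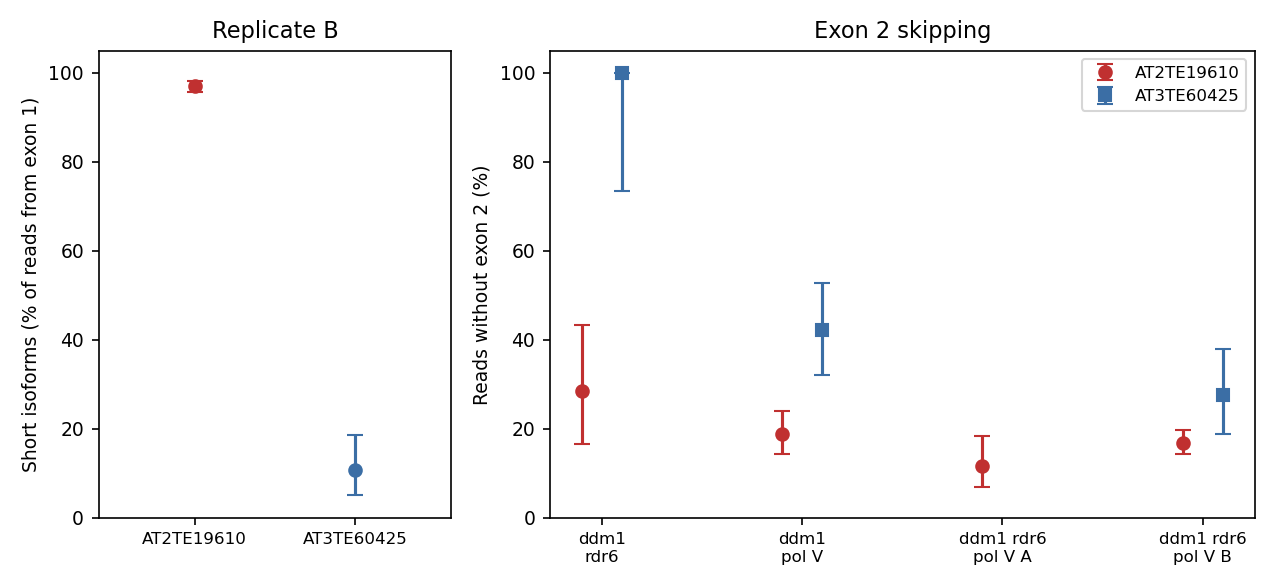
Left, short forms as a percent of the reads that began in exon 1, in Rep B. Right, reads without exon 2 as a percent of short-form reads at AT2TE19610 (red) and of all reads at AT3TE60425 (blue), by library. Bars are exact Clopper-Pearson 95% intervals. Short forms made up 97.1% at AT2TE19610 and 10.6% at AT3TE60425, and no point is drawn for AT3TE60425 in Rep A, where it had no model.

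Other aligning loci were few. Exons 1 and 2 aligned with models of AT4TE09570 (chr4:2014208-2015616, minus strand) at 81.1% identity over 122 nt. They also aligned with models of AT4TE15555 (chr4:3415750-3417170, plus strand) at 82.1% over 123 nt. These are the longest alignments, given for the six-exon form, and the three-exon short and seven-exon forms also hold exons 1 and 2. AT4TE09570 had 11 reads in Rep A and 31 in Rep B, and AT4TE15555 had 30 in Rep B. Neither had a model in the other libraries.

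The exons differed in how often their sequence occurred elsewhere in the genome. Counted at 80% identity over at least 80% of the exon, exon 1 had 1 other copy, exon 2 had 2 and exon 3 had 1. Exons 4, 5 and 6 had 5 each, and exon 7 had 22. The best copies of exons 1 to 3 lay at AT3TE60425. The best copy of exon 4 was on chromosome 4 (chr4:5568712-5569395, 93.6%), those of exons 5 and 6 were on chromosome 3 (chr3:11411415-11411565, 96.0%, and chr3:11410921-11411317, 94.2%), and that of exon 7 was on chromosome 5 (chr5:12489956-12490436, 92.3% over 480 nt). Counted instead as any hit of at least 80 nt at that identity, exon 3 had 8, as many as exon 4 and more than exons 5 (6) and 6 (5), while exon 7 had 66. How the aligner placed reads among the copies was not tested.

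The read profile of the locus was set beside those of the 30 others among the 31 loci with a model in all 5 mutant libraries. The profile holds the reads by which the locus was chosen. Distances among the other loci were not set beside it, so the values do not show whether the locus stands apart. Likeness was taken as the root mean square difference of the log2 ratios to ddm1 over the 4 other mutant libraries, which ran from 0.91 to 4.57 with a median of 2.23. The nearest were AT3TE67445 (0.91), AT4TE15820 (0.93), AT1TE45375 (1.06), AT1TE44630 (1.09) and AT1TE44450 (1.27). In the order ddm1, ddm1 rdr6, ddm1 pol V, Rep A and Rep B, AT3TE67445 had 27, 117, 177, 82 and 469 reads. AT4TE15820 had 39, 100, 280, 68 and 813. Both had more reads in ddm1 rdr6 and in ddm1 than AT2TE19610 and fewer in Rep A and Rep B.

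All values rest on 1 library per genotype except for the triple mutant. The 6 libraries held 136 to 17106 TE cluster reads in 6 to 432 models. TriZOL was used to extract RNA from wt and TriZOL LS from the mutants, so wt and extraction cannot be told apart. The files list TE transcripts only, so neither the mutated genes nor markers of flower buds could be read from them. In these bulk samples, fewer cells with the transcript and less transcript per cell cannot be told apart.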

How the data were processed

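Poly(A) RNA of 6 libraries (50 ng each) was sequenced as PCR-cDNA on a MinION, per the labels' protocols. The authors deposited transcript models with exon coordinates and lists pairing models with TE identifiers. Their source column names pinfish, and the submitters' processing notes name minimap2 and TAIR10. For versions and clustering settings, nothing is given in the sources used here. The number ending each model name was read as its cluster reads, which the files do not state, and the smallest was 10. The members and lists were chosen with earlier results of these data known.

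Same-strand models with exons sharing 1 bp or more were joined into loci. Sequences came from the reference TAIR10.1, whose match was checked by splice sites (501 of 509 introns GT-AG). Named loci were the 5 nearest in read profile and those aligning at 80% identity over 80 nt, and loci with an En/Spm match were given as a range. Element ends were unknown, so no target site duplication was searched. Poisson, conditional binomial and Clopper-Pearson intervals were exact at 95%, and only the conditional binomial interval was tested on simulated data. Replicate numbers pair no groups. Alternatives changed membership, read minimum, scaling, junction tolerance (10 nt) and replicates. Python 3.11.15, scipy 1.17.1, pysam 0.24.0, biopython 1.88, matplotlib 3.10.9 and BLAST+ 2.17.0 were used.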

Additional observations from a re-analysis of the deposited data

How the results depend on the processing

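Scaling changed the ratios to ddm1 most. Per 1000 TE cluster reads, the ratio was 0.730 in ddm1 rdr6, which turned its direction, 2.95 in ddm1 pol V, 2.76 in Rep A and 2.29 in Rep B, and the triple mutant mean was 1.33 on the log2 scale. Relative to the other loci found in all 5 mutant libraries, it was 0.920 in ddm1 rdr6, again turned, 4.78 in ddm1 pol V, 4.28 in Rep A and 5.55 in Rep B. No interval was computed for the scaled ratios. Those of ddm1 rdr6 rest on 49 reads against 26, so a turned direction there is not a resolved difference. With models of at least 20 reads, ddm1 rdr6 had 35 reads in 1 model, Rep A 1 model, and Rep B 2 models, with 2 isoforms in all. With AT2TE19610 pairs only, Rep B had 3 models and the locus 3 isoforms. Leaving out either triple-mutant replicate gave 2 to 5 isoforms (2 without Rep B). The log2 ratio was then that of the replicate left, 5.02 for Rep B and 2.40 for Rep A, a change larger than counting error. The SD (1.85, n = 2) comes from the same difference, so it cannot serve as a measure of that change. The cause was not tested, other than that fewer models or libraries entered. Of the 5 nearest loci, 4 remained without Rep A and 4 without Rep B. No paired analysis was possible because every genotype but the triple mutant had 1 library and no result comes from a test. Isoforms under 10 reads are not listed, and library depth is unknown.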
